A study of Mus musculus with 4 samples.

Results

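Hub anchors between genes are stretches of the mouse genome that lie outside protein-coding genes and take part in many chromatin interactions. They were chosen by their number of interactions in 1 deposited list, which holds 99041 interactions between 56427 distinct anchors, each a bin of 10 kb. A member is an anchor with 20 or more interactions that overlaps no coding gene and no stretch of 2.5 kb around the ends of one, on mm10 (GRCm38.p6) coordinates. Of 18379 anchors between genes, 215 met the rule (1.17%), and they took part in 5514 of the listed interactions. Because that number selected them, it is given here as a description, and no test is made of it.

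The list comes from H3K27ac HiChIP, which ligates neighbouring chromatin fragments and enriches for fragments with acetylated lysine 27 of histone H3. The titles of the libraries say ChIP-seq, whereas their extraction text and the design of the series say HiChIP, and the pairs of anchors in the list are read here as the latter. The series describes 2 libraries of brain tumor with the genotype YAP-M fusion, a fusion of YAP1 with MAMLD1, and 2 libraries of wild-type mouse neural stem cells in culture. All 4 were made with the H3K27ac antibody. The labels give 1 culture protocol for all 4 and no strain, age, number of animals or promoter of the fusion. The list carries no column for a library, no read count and no score. It is read here as that of the tumor from the letters YM in its name. Its depth is unknown, so no value below has a replicate error, and a contact that is not listed was not detected rather than shown to be absent. With no expression values, the tissue label could not be checked against marker levels.

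H3K27ac marks active promoters and enhancers. Enhancers can lie far from the gene they act on, in the space between genes, and reach its promoter by looping of the chromatin fiber. Anchors with many listed partners are often called hubs. A contact alone does not show that a site regulates the gene it touches.

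The members were spread over all 19 autosomes, from 3 on chromosome 7 to 23 on chromosome 1. They formed 189 separate regions when bins that touch were joined, of which 169 were a single bin and the longest had 4 bins. The number of interactions per member ran from 20 to 54, with a median of 24 and an interquartile range of 21 to 29. There were 12 members with 40 or more interactions. At the threshold, 29 members had exactly 20 interactions, and 44 anchors between genes had 19 and were left out. Adjacent bins often share a partner, so interactions were also merged into contacts when both anchors lay within 1 bin. On that count the members had a median of 8 contacts, and the range was 2 to 17. By the same measure, the median was 7 for the 318 anchors with 20 or more interactions at coding-gene ends and 5 for the 1076 anchors between genes with 10 to 19 interactions.

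Although the members lie outside coding genes, many of them carried annotated genes of other types. Such a gene overlapped 103 of 215 members (47.9%), against 44.1% of the anchors between genes with 10 to 19 interactions. At 97 members it was a long noncoding RNA (lncRNA), a transcript without a protein product. The RefSeq promoter table (GRCm38.p6) placed an annotated start inside 39 members. The 4 promoters that follow lie in members with 33 or more interactions and are shown with each CG dinucleotide in capitals, because CG-rich starts are a common form of mammalian promoter. They were picked after their values were seen. Each runs from 250 bases before the start to 50 after it. They are 2310015A10Rik (chr12:80132795-80133094, minus strand, in a member with 54 interactions), Dleu2 (chr14:61682324-61682623, minus strand, 45 interactions), Dubr (chr16:50732724-50733023, minus strand, 38 interactions) and A230028O05Rik (chr16:25059389-25059688, plus strand, 33 interactions).
2310015A10Rik: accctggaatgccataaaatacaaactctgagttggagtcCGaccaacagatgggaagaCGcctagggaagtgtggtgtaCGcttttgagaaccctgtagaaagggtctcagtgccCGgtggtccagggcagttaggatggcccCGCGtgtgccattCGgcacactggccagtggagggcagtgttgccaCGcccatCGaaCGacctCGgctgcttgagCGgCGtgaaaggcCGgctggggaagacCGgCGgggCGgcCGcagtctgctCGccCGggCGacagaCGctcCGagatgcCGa
Dleu2: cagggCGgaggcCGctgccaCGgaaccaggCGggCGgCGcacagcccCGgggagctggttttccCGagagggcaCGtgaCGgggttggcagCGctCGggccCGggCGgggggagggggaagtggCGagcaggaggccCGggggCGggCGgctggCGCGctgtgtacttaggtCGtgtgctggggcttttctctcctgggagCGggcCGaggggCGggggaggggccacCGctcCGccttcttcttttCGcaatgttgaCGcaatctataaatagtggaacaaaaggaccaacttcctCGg
Dubr: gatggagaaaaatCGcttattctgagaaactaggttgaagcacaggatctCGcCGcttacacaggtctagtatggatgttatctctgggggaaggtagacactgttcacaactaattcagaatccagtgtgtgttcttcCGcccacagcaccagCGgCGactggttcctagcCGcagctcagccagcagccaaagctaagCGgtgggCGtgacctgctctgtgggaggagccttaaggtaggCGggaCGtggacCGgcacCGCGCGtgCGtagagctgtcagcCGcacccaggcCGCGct
A230028O05Rik: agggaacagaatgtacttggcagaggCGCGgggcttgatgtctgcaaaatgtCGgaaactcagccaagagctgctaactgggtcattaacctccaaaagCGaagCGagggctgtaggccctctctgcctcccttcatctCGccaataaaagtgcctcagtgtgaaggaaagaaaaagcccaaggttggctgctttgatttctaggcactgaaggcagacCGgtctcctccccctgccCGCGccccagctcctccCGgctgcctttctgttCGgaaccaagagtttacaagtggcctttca

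These windows held 24 CG dinucleotides for 2310015A10Rik, 29 for Dleu2, 19 for Dubr and 11 for A230028O05Rik. Starts of Gm4319 and Gm46116, in members with 34 interactions each, were not picked and held 12 (Gm4319) and 9 and 2 (both starts of Gm46116). The median was 4 over the 53 noncoding starts inside members and also 4 over 11258 other noncoding starts on the autosomes. The 3 letter strings searched on both strands were CATTCC (the core of sites for TEAD factors, through which YAP binds DNA), TGANTCA (AP-1) and TTGGCA (the half-site of nuclear factor I, NFI). CATTCC occurred in 9 of the 53 starts (17.0%) and in 16.7% of the other noncoding starts. TGANTCA occurred in 13.2% against 9.23%, and TTGGCA in 15.1% against 15.9%. Over all 31396 autosomal promoters in the table the shares were 14.6%, 7.84% and 14.1%. Among the promoters shown, 2310015A10Rik held 1 CATTCC, Dleu2 and A230028O05Rik held 1 TTGGCA each, and no 2 matches overlapped. A match describes the letters only.

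A microRNA gene lay in 1 member. Mir125b-1, inside the host transcript Mir100hg, sits at chr9:41581940-41582001 (from the first base of one mature arm to the last base of the other). Its main product is a microRNA abundant in the brain. Both mature arms are shown because they are the only microRNAs of the table in these anchors, with the seed (bases 2 to 8) in capitals.
mmu-miR-125b-5p: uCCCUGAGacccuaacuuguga
mmu-miR-125b-1-3p: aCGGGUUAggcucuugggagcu

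The member at Mir125b-1, chr9:41580001-41590000, had 24 interactions, 8 to lower and 16 to higher coordinates. It lay 316023 bp from the nearest coding gene, the predicted Gm40514, which it contacted with 1 interaction. It reached Hspa8, a constitutive heat shock chaperone, over 780 kb with 2 interactions, and Sorl1, a sorting receptor of neurons, over 380 kb with 1. It was also joined to the member at chr9:41950001-41960000, close to Sorl1, which had 36 interactions. All 36 ran to lower coordinates and none touched a coding-gene end. The near end of Sorl1 lies in the bin adjacent to this member, closer than the 20 kb at which the list starts.

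The partners of most members lay on 1 side. All partners were at lower coordinates for 64 members and at higher coordinates for 51, together 115 of 215 (53.5%). Among the anchors between genes with 10 to 19 interactions the share was 50.6%, and among the hub anchors at coding-gene ends 43.1%. At least 90% of the partners lay on 1 side for 159 members (74.0%). That share was 62.2% for anchors between genes with 10 to 19 interactions. It was 66.7% for hub anchors at coding-gene ends and 71.9% for hub anchors inside genes. All anchors between genes below 20 interactions had a median of 2 interactions. Of these, 80.5% had all partners on 1 side, and 81.2% had at least 90% there. Only 6 members had no more than 60% on the larger side. One of them, at chr10:17360001-17370000 near the co-activator gene Cited2, had 11 lower and 12 higher partners.

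**Figure D1:**
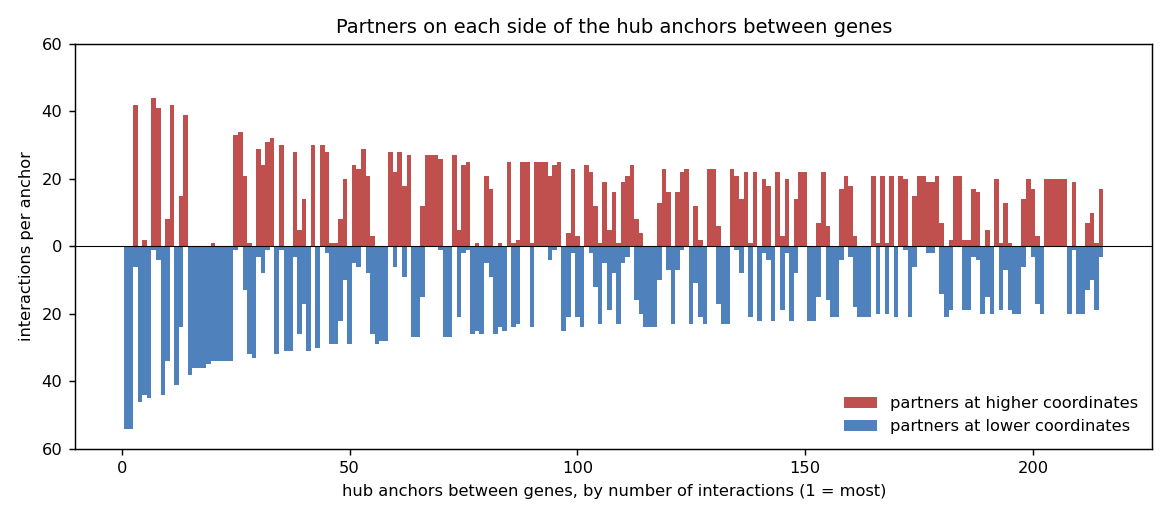
Number of interactions to higher coordinates (upward, red) and to lower coordinates (downward, blue) for each of the 215 members, ordered by their total. In 115 members the bar extends in 1 direction only, and the totals fall from 54 to 20.

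The distances spanned were long. The median was 310 kb per interaction (interquartile range 190 to 460 kb), compared with 220 kb for the anchors between genes with 10 to 19 interactions and 280 kb for the hub anchors at coding-gene ends. The farthest partner of a member lay at a median of 600 kb, and for 24 members at 900 kb or more. The list ends at 1000 kb, so no longer distance could be seen. An anchor with more partners has more chances of a distant one, so these distances are not independent of the rule.

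Partners of members lay mainly in the space between genes. Of the 5609 partner positions counted over all members, 51.9% were between genes, 31.1% inside a coding gene away from its ends, and 17.0% at a coding-gene end (a bin that reaches to 2.5 kb or less from where a gene begins or stops on the map). The share between genes was 46.8% for anchors between genes with 10 to 19 interactions. It was 53.7% for hub anchors at coding-gene ends and 48.8% for hub anchors inside genes. The share at gene ends was 25.9% for anchors between genes with 10 to 19 interactions and 15.3% for hub anchors at coding-gene ends. Within the span from its nearest to its farthest partner on each side, 45.2% of the bins, pooled over the members, were listed as partners. Coding-gene ends were more frequent in the listed bins than in the 6802 skipped ones, 17.0% against 8.13%, a ratio of 2.09. That ratio was 2.56 for anchors between genes with 10 to 19 interactions, 1.39 for hub anchors at coding-gene ends and 1.67 for the 89 hub anchors inside genes. Neighbouring bins are not independent, and no test of these ratios was made.

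**Figure D2:**
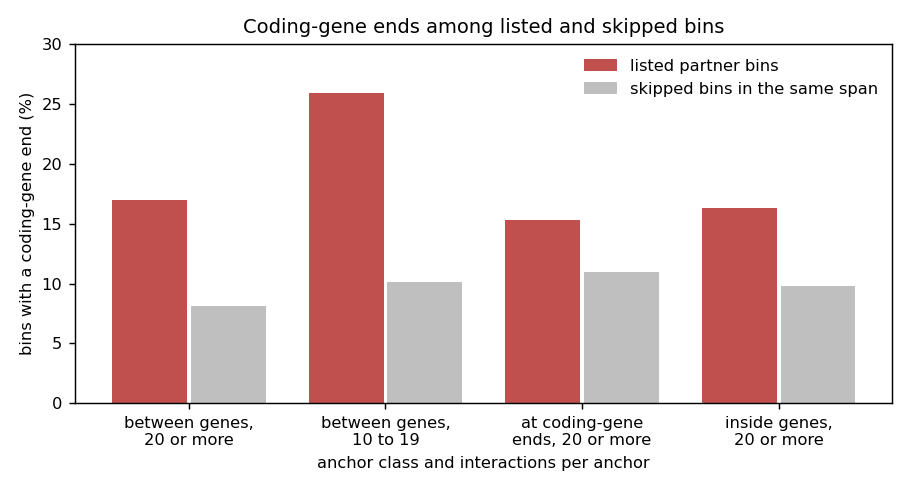
Percentage of 10 kb bins that hold a coding-gene end among listed partner bins (red) and among skipped bins of the same spans (grey), for 4 classes of anchors. There are no error bars because the list has no replicates. Listed bins stand above skipped bins in each class, at 17.0% against 8.13% for the members.

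Nearly all members touched at least 1 coding gene. A coding-gene end was among the partners of 205 of 215 members (95.3%). The share was 67.9% for all anchors between genes below 20 interactions and 91.3% for those with 10 to 19, and it grows with the number of partners an anchor has. The median was 2 genes per member. There were 55 members with exactly 1 gene, 150 with 2 or more and 34 with 5 or more. In all, 464 of 20665 autosomal coding genes (2.25%) had an end contacted by a member, 364 of them by a single one.

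The gene nearest to a member was often not among those it contacted. The nearest coding gene lay at a median of 49.9 kb (interquartile range 22.5 to 124 kb) and was contacted by 63 members (29.3%), compared with 33.2% of anchors between genes with 10 to 19 interactions. Another 142 members contacted 1 or more other genes but not the nearest. The list starts at a distance of 20 kb, which keeps out the closest genes. Of the 53 members with a gene within 20 kb, 7 contacted it (13.2%), whereas 56 of the other 162 did (34.6%). Over the 616 pairs of a member and a contacted gene, the median distance was 340 kb (interquartile range 210 to 530 kb). No other coding gene lay whole between the 2 in 204 pairs (33.1%), and at least 1 did in 412.

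**Figure D3:**
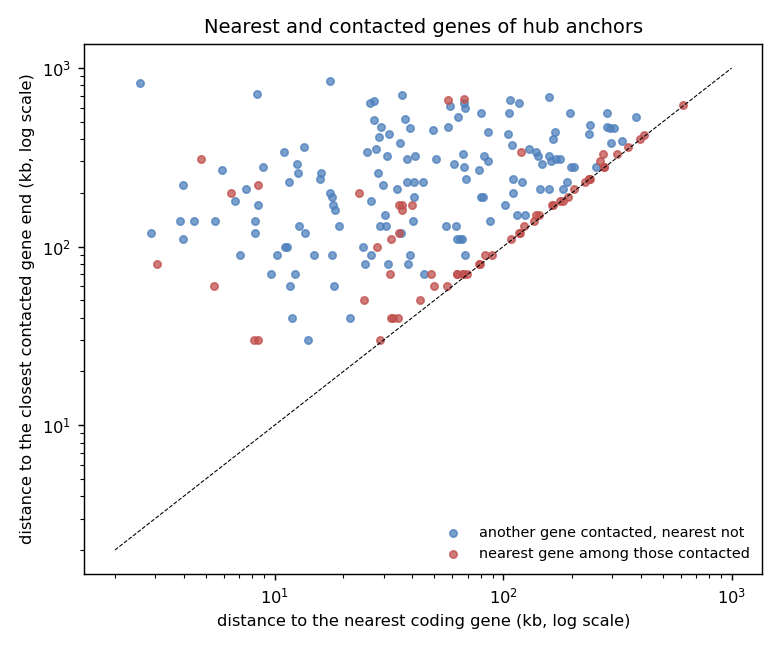
Distance from each member to the nearest coding gene (horizontal, log scale, kb) against the distance to the closest coding-gene end it contacts (vertical, log scale, kb). Red points are members that contact their nearest gene, blue points those that contact another gene only, and the dashed line marks equal distances. The 10 members without a contacted gene are not drawn.

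The best connected region by distinct interactions lay at chr1:72100001-72130000, a run of 3 members that overlap the lncRNA Gm4319. They had 41, 35 and 34 interactions, all to lower coordinates, and together 110. Most partners, 32, 27 and 23, lay between genes. Each reached Fn1, which encodes the matrix protein fibronectin, over 450 to 470 kb with 2 interactions. They also reached Atic, an enzyme of purine synthesis whose end bin is shared with Fn1, and 1 of them reached Bard1, the partner of Brca1, at 1000 kb. Mreg, the nearest gene to all 3, was not contacted. A further member at chr1:71720001-71730000 had 20 interactions and contacted Fn1 over 70 kb from the same side.

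**Figure D4:**
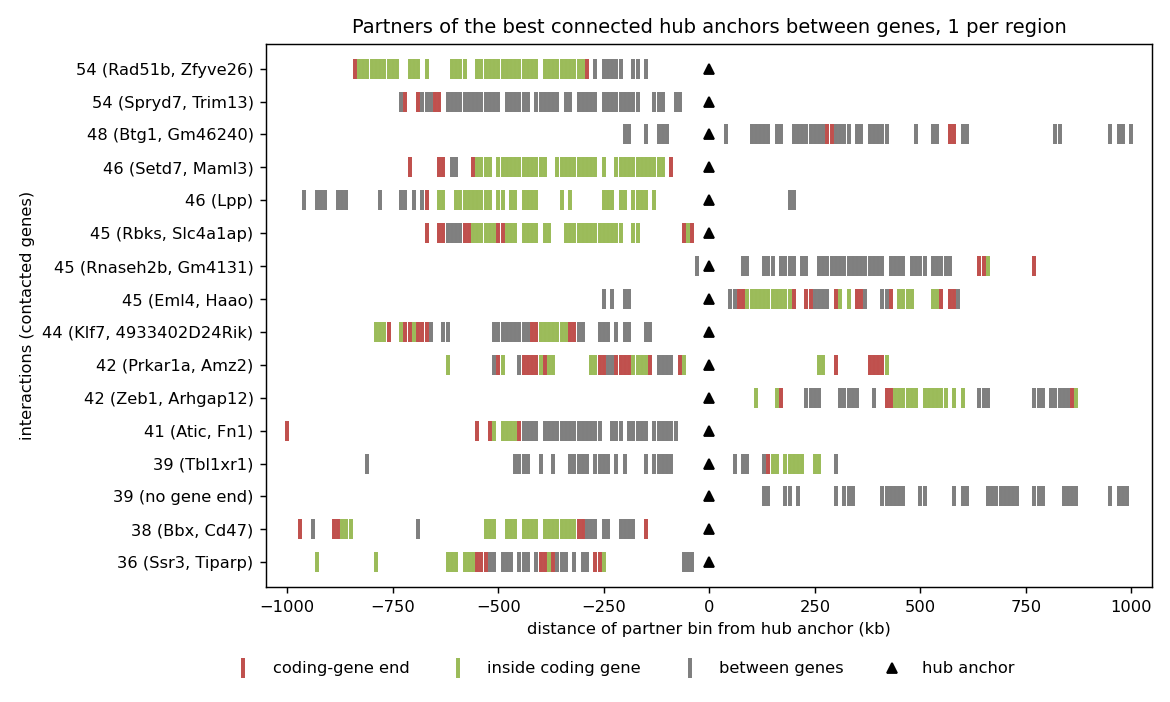
Partner bins of the best connected member in each of 16 regions, by distance in kb from the member (triangle at 0). Row labels give the number of interactions and up to 2 contacted genes. Colors mark partner bins at a coding-gene end (red), inside a coding gene (green) and between genes (grey). Most rows extend to 1 side, and the green runs at Rad51b and Lpp cover long genes.

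The run at chr12:80120001-80150000 had 22, 54 and 26 interactions, again all at lower coordinates. Most ended inside genes, 43 of the 54 at the middle bin. The genes with contacted ends were Rad51b, a gene of DNA repair, at 290 to 850 kb, and Zfyve26, which shares an end bin with it. The middle bin ties for the largest number among the members with chr14:62240001-62250000. That second member also had 54 partners at lower coordinates, but 50 of them were between genes.

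The member on chromosome 14 belonged to the largest group of members joined to each other. Such direct links tied 95 members into 32 groups, with 95 interactions between members. The group at chr14:61640001-62250000 had 7 members with 24 to 54 interactions each and 18 links among them. Members at its low end, where Dleu2 lies, had 32 and 45 interactions, of which 32 and 44 pointed to higher coordinates. Members at its high end pointed to lower coordinates with all of their 25 and 54. Thus the interactions of both flanks pointed into the interval between them, which holds no coding gene. The contacted genes lay outside it. Trim13, an E3 ubiquitin ligase gene, and Spryd7 were each contacted by 3 members, at 380 to 640 kb and at 640 to 710 kb. Kcnrg, a regulator of potassium channels with an end bin shared with Trim13, was contacted by 2.

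Members that face each other across 1 gene were found at several regulators. The co-repressor gene Tle3, of the Groucho family, was contacted by 6 members in a group that spans 710 kb. At lower coordinates, 5 members between chr9:60990001 and 61060000 had 30, 31, 26, 22 and 34 interactions and reached Tle3 over 310 to 370 kb, with 2 or 3 interactions each. From the other side, the member at chr9:61700001-61710000 had 31 interactions, 26 of them to lower coordinates, and reached it over 280 kb. No coding gene lay between any of these members and Tle3, although Tle3 was the nearest gene of none. The 5 on the lower side also touched Kif23, a kinesin of cell division, and Rplp1, a ribosomal protein gene in the same bin, with 1 interaction each at 860 to 920 kb.

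Rreb1, a zinc finger transcription factor, was contacted by the largest number of members, 7. They lay in 3 regions between chr13:37430001 and 37550000, at 230 to 340 kb, and all on its lower side. Their totals were 25, 27, 20, 20, 23, 21 and 24 interactions, of which 2 in all pointed away from Rreb1. Each spent 3 or 4 interactions on the ends of Rreb1, 25 of the 38 interactions listed at the ends of this gene. Beyond Rreb1, 6 of the 7 also reached Ssr1, a subunit of the complex that assists protein entry into the endoplasmic reticulum, at 420 to 530 kb. Cage1 was contacted by 2. The gene nearest to all 7, Ly86, was contacted by none of them.

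Btg1, which encodes an antiproliferative protein, was contacted by 4 members in a group that extends over 1100 kb. The member at chr10:96330001-96340000 had 48 interactions, 42 of them to higher coordinates, and 17 merged contacts, the most of any member. It reached Btg1 over 280 kb with 2 interactions. Members at 400 and 240 kb on the same side had 27 and 24 interactions and also reached it with 2 each. On the opposite side, chr10:97310001-97320000 had 36 interactions, all to lower coordinates, and reached Btg1 over 690 kb, past 1 coding gene. A member 7001 bp from Btg1 itself, at chr10:96600001-96610000, had 26 interactions. No contact of this member with Btg1 or any other gene end was listed. The near end of Btg1 lies in the adjacent bin, closer than the 20 kb at which the list starts. Its other end lies 1 bin further, at 20 kb, where a contact could be listed but was not.

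The promoters of 3 of the genes with the most members are shown with CG dinucleotides in capitals, because in each the 10 kb bin that holds the start shown was itself a partner of members. No rule set in advance chose these 3, and the same can hold for genes that are not shown. The Rreb1 start shown lies inside the gene's span, 48.5 kb from its lowest coordinate, so its bin is not among the end bins counted above. They are Rreb1 (chr13:37826662-37826961, plus strand, 7 members), Tle3 (chr9:61372116-61372415, plus strand, 6 members) and Btg1 (chr10:96616751-96617050, plus strand, 4 members).
Rreb1: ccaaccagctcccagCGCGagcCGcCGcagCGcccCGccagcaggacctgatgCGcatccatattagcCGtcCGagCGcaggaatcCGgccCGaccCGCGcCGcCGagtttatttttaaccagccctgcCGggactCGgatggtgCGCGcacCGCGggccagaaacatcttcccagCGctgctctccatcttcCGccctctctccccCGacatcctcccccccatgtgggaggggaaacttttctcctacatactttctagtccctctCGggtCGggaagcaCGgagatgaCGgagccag
Tle3: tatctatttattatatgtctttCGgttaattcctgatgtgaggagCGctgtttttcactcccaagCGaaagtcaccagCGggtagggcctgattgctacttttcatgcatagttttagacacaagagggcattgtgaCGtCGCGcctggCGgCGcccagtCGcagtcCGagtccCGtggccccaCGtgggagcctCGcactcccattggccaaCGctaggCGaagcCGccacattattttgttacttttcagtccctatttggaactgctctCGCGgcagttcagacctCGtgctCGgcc
Btg1: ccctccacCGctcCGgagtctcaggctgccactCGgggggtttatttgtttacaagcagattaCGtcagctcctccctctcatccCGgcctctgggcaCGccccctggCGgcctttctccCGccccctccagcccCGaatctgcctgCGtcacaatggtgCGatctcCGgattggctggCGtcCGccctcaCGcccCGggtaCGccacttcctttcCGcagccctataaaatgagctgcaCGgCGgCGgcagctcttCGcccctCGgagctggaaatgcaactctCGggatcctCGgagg

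These windows held 29, 21 and 25 CG dinucleotides, compared with a median of 7 over all autosomal promoters of the table. That set is not limited to coding genes and includes the noncoding starts, whose median outside members was 4. None of the 3 windows held a match to the TEAD, AP-1 or NFI letters, which says only that these letters are not in these 300 bases. The table gives Rreb1 other starts as well, and the one at chr13:37888621-37888920, in a bin that is a partner of 4 members, held 1 CATTCC.

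Thbs1, the gene of the matricellular protein thrombospondin 1, was contacted by 5 members between chr2:117450001 and 117920000, all on its lower side at 190 to 660 kb. They had 22, 24, 24, 21 and 23 interactions and spent 2 or 3 on Thbs1. The end bins of Thbs1 also hold an end of Fsip1, which 4 of the members contacted. For 4 of the 5 the nearest gene was Rasgrp1, which is not among their contacted genes. Chd7, a chromatin remodeler needed for neural crest development, was contacted by 5 members as well. Of these, 4 lay at higher coordinates and reached an end of Chd7 over 150 to 440 kb. The 1 at lower coordinates reached it over 230 kb. The distances of 440 kb and, from the lower side, 230 kb run to the far end of the gene. The adjacent members at chr4:9010001-9030000 had 21 and 27 interactions, all pointing towards Chd7, and spent 3 and 4 on it. Merged, each had 2 contacts, the lowest value among the members.

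**Figure D5:**
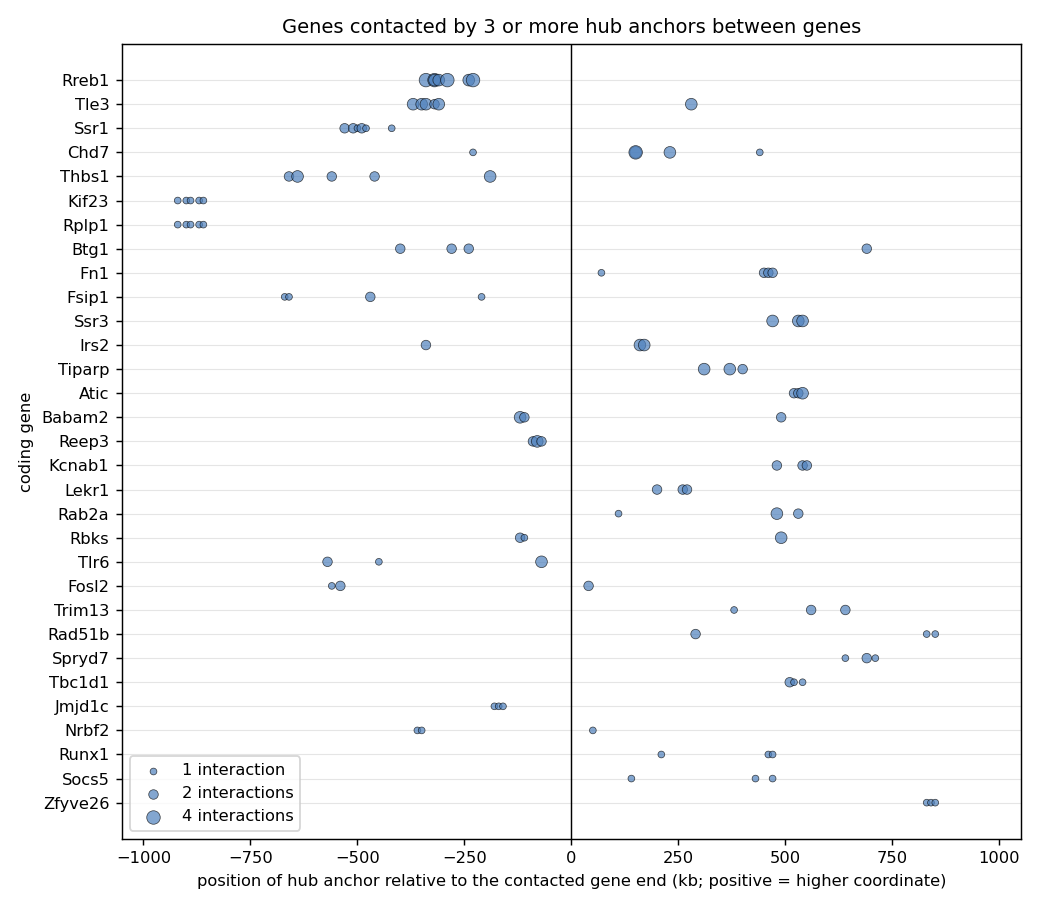
Positions of members relative to the contacted gene end in kb for the 31 genes contacted by 3 or more members (positive values are higher coordinates). Each circle is 1 member and its area scales with the number of interactions between that member and the ends of the gene. Members lie on both sides of Tle3, Btg1, Chd7 and Irs2, and on 1 side of Rreb1 and Thbs1.

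Several of the remaining regions with the most interactions followed the same layouts. Members near Lpp, a LIM-domain protein gene of cell adhesion, at chr16:25050001-25070000 had 33 and 46 interactions, of which 23 and 31 ended inside a gene, and touched the far end of Lpp at 660 and 670 kb. Members at chr8:11170001-11190000 had 31 interactions each, all to lower coordinates. They reached Irs2, an adaptor of insulin receptor signalling, over 160 and 170 kb with 3 interactions each, and contacted no other gene end. Col4a1, a basement membrane collagen gene, lay 18423 and 8423 bp away. Its near end begins in a bin 20 kb or less from each member, at or below the distance at which the list starts. Irs2 was also reached from its other side, over 340 kb, by the member at chr8:10660001-10670000.

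At chr10:66910001-66940000, 3 members had 20, 27 and 20 interactions, all to higher coordinates. They contacted Reep3, a gene of endoplasmic reticulum shaping and the nearest to them, at 70 to 90 kb. Jmjd1c, a gene of the histone demethylase family that shares an end bin with Reep3, was contacted by all 3, and Nrbf2, an autophagy gene, by 2 of them. At chr3:65920001-65940000 members with 36 and 25 interactions, and 1 more member nearby with 24, reached Tiparp, a mono-ADP-ribosyltransferase gene, over 310 to 400 kb. The same 3 reached Ssr3, another subunit of the complex of Ssr1, and the potassium channel gene Kcnab1 that shares a bin with it.

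The pair of members at chr1:128820001-128840000 had 34 and 24 interactions, all to lower coordinates. They reached Cxcr4, a chemokine receptor gene, over 230 and 240 kb with 2 interactions each. They also reached Mcm6, a subunit of the replicative helicase, at 460 and 470 kb with 3 and 2 interactions, past 2 coding genes. Dars, an aspartyl-tRNA synthetase gene that shares a bin with Mcm6, was reached at 410 and 420 kb, past 1 coding gene. On chromosome 5 a group of 5 members between 64380001 and 64890000 held the run at 64860001 to 64890000, with 34, 22 and 32 interactions. The first 2 of that run contacted only Tbc1d1, a GTPase-activating protein gene, at 510 and 520 kb, whereas the third contacted 8 genes. Among these were Tbc1d1, the Toll-like receptor gene Tlr6 and, sharing a bin with Tlr6, Fam114a1.

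The genes contacted were compared with 16 gene lists. They cover pathways and cell types that this tumor could involve, and also hold 1 list of broadly expressed genes and 1 of genes of unrelated tissues. Of the 247 list genes on the autosomes, 19 were contacted by a member (7.69%), against 2.25% of all coding genes. Any listed interaction at an end was found for 216 of the 247. The same count over all coding genes was not set beside it. These shares therefore do not show whether members favour the list genes. The lists were chosen with earlier results of these data known, and no test of them was made. The matrix and adhesion list had 4 of 16 (Thbs1, Fn1, Cd44 and Col4a1). Cd44, a hyaluronan receptor gene, received 4 interactions from a member 100 kb away. The AP-1 list had 3 of 12. Fosl2 was contacted by 3 members. The one at chr5:32190001-32200000 had 45 interactions, all to lower coordinates, and was 40 kb away, and the others were 540 and 560 kb away with 3 coding genes between. Jun and Maf were contacted by 1 member each, over 110 and 280 kb.

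The Notch list had 3 of 18. Hes1, a Notch effector and repressor of neuronal differentiation, stood between 2 members that are joined to each other. The member at chr16:29730001-29740000 had 34 interactions, all to higher coordinates, and the one at chr16:30180001-30190000 had 32, all to lower coordinates. Each spent 2 on Hes1, over 330 and 110 kb. Rbpj, the DNA-binding factor of the pathway, received 2 interactions over 190 kb. Maml3, a mastermind co-activator, received 1 from the member at chr3:52190001-52200000, whose 46 interactions all pointed to lower coordinates and ended inside a gene in 39 cases. Hes1 also stands in the list for neural stem cells and radial glia, where it was the only one of 18 contacted.

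For the YAP/TEAD target list, 3 of 22 genes were contacted, each by 1 member with 1 interaction. They were Asap1 at 240 kb, Dock5 at 200 kb and Ajuba at 350 kb, the last with 11 coding genes between. The contacted bin of Dock5 also holds ends of Gnrh1 and Kctd9, and Kctd9 received 3 interactions from the same member. None of 20 Hippo pathway genes was contacted. The astrocyte list had 2 of 12, Nfib at 340 kb and the glutamate transporter gene Slc1a2 at 210 kb. The cell cycle list had 1 of 20 (Cdkn2a, which encodes the inhibitors p16 and p19, 2 interactions at 230 kb), and the ependymal and motile cilium list 1 of 18 (Spag6, 1 interaction at 650 kb). For other cell types that a brain tumor can hold, the microglia and macrophage list had 1 of 15, Ptprc, the leukocyte antigen CD45, with 1 interaction over 150 kb. The endothelial (12 genes), pericyte and fibroblast (11), oligodendrocyte (10) and neuron (15) lists had 0 contacted. Among genes of unrelated tissues 0 of 20 were contacted. With so few genes per list, these counts describe this interaction list and show no difference between lists.

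The largest number was 14, at chr14:54220001-54230000, a bin 5485 bp from Dad1 with 26 interactions. It reached Slc7a7, an amino acid transporter gene, with 4 interactions and Mmp14, a membrane-bound matrix metalloproteinase gene, with 3. The member at chr19:12010001-12020000 contacted 12 genes, among them Lpxn over 780 kb with 26 coding genes between, the largest number over all pairs. These genes, and those of the members named next, were chosen after their values were seen.

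The 10 members without a contacted gene end had 21 to 39 interactions. At chr4:55510001-55520000, 7137 bp from Klf4, a pluripotency and differentiation factor gene, all 39 partners were between genes, at 130 to 990 kb on the higher side. The near end of Klf4 lies in the adjacent bin, closer than the 20 kb at which the list starts. Its other end lies 1 bin further, at 20 kb, where a contact could be listed but was not. The member at chr2:46440001-46450000, which overlaps the lncRNA Gm13470, was the farthest from any coding gene, 1323 kb from Zeb2. All 25 of its partners were between genes as well.

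Members were also linked to hub anchors at coding-gene ends. Such an anchor was among the partners of 106 members (49.3%), through 134 interactions or 2.39% of all partner positions. Both kinds of anchor were selected on the same counts, and an anchor with more partners has more chances of such a link. The share among other anchors between genes was not set beside it. It is therefore a description only and does not mark the members out.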

How the data were processed

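The analysis used 1 deposited table of positions, described by the series as H3K27ac HiChIP. Per the file header, the authors' list gives the chromosome, start and end of both anchors of each interaction and no count, score or library. BWA and mm10 are named in the submitters' processing notes. How interactions were called, at which threshold, and whether the 4 libraries (2 per group) were pooled is not given in the sources used here. Gene positions and types came from the RefSeq annotation of GRCm38.p6, and promoter and microRNA sequences from RefSeq tables of the same build. Start positions were turned to 1-based coordinates.

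Python 3.11.15 with pandas 2.3.3, numpy 2.4.6 and scipy 1.17.1 was used, and the counting steps were tested on simulated data. A gene end was the lowest or highest coordinate with 2.5 kb to each side. Promoter sequences matched 77.8% of contacted genes, under the 80% needed to describe them as a group, so only single promoters are given. The named genes were up to 3 genes for each of the 10 regions with the most interactions, the 12 genes with the most members and up to 3 contacted genes per list. Other genes were chosen after their values were seen. The result of 1 list, of broadly expressed genes, is not reported here. The members and the gene lists were chosen with earlier results of these data known. Alternatives varied the threshold, the gene windows, the annotation, merging and the choice of bins.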

Additional observations from a re-analysis of the deposited data

How the results depend on the processing

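No paired analysis was possible because no value is tied to a single library, and for that reason no library could be left out either. Of 37 values recomputed for the main counts and shares under the alternatives, 29 were within the tolerance, which was 1.5 times the main count or, for a share, its exact 95% binomial interval (too narrow where touching bins share partners). With 15 or more interactions there were 487 members, 953 contacted genes and 14.2% of list genes contacted. With 30 or more there were 49, 125 and 1.62%. When all annotated genes had to be avoided, 102 members were left, fewer because loci of noncoding genes were removed by construction. Merging within 2 bins gave a median of 5 contacts per member. The share of members that contact a gene end ran from 94.4% to 96.7%, and that of members that contact their nearest gene from 27.4% to 33.5%. Of the 48 named genes, 21 had no member left with 30 or more interactions. Leaving out predicted gene models, an alternative chosen after seeing the data, gave 216 members. Using annotated starts in place of both ends was not run, because starts were matched for 77.8% of the contacted genes.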

Other observations

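Some members contacted genes of growth factor signalling that the account above does not cover. They were chosen after their values were seen, and no test was made. Irs1, the adaptor of the insulin receptor related to Irs2, was contacted by 2 members that are joined to each other, at chr1:81750001-81760000 and chr1:81950001-81960000. They had 20 and 23 interactions and reached the far end of Irs1, their only contacted gene, over 530 and 330 kb. The second lay 273105 bp from the gene itself. Foxo1, a transcription factor restrained by insulin signalling, received 3 interactions over 60 kb from a member with 22. It was also the nearest gene of the members at chr3:52190001-52200000 and chr3:52250001-52260000, 68337 and 8337 bp away. No contact of either with Foxo1 was listed, and 8337 bp is below the 20 kb at which the list starts. Igf1r, the receptor of insulin-like growth factor 1, received 2 over 140 kb from a member with 27 that overlaps the lncRNA 4833412C05Rik.

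Bmp4, a bone morphogenetic protein gene, was the only gene contacted by the member at chr14:45990001-46000000, over 390 kb, and 24 of the 25 interactions of that member pointed towards it. Fst, which encodes the activin antagonist follistatin, was the only gene of 2 joined members on opposite sides, at 190 and 270 kb. Tgfbr2, a TGF-beta receptor gene, received 3 interactions over 210 kb from a member whose nearest gene was Rbms3. The member at chr14:54220001-54230000, with the most contacted genes, overlaps the constant segment of the T cell receptor alpha locus.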
